A study of Mus with 9 samples.

Results

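The 10 genes described here are the core of the circadian clock and 2 of its output factors: Arntl (also called Bmal1), Clock, Npas2, Per1, Per2, Per3, Nr1d1, Nr1d2, Dbp and Hlf. They were taken by symbol from a table of 55421 mouse genes, in which each occurred once, and all 10 were among the 19326 genes with enough reads to test. RNA was sequenced from samples labelled as atria (left atrium in the design text) of wild-type male C57BL/6J mice, 8 to 10 weeks old, with 3 libraries in each of 3 groups. Sham animals were operated on without ligation and received vehicle, MI animals had the left anterior descending coronary artery tied off for good and received vehicle, and MI_ART animals had the same ligation and received artesunate, an antimalarial artemisinin derivative dissolved in dimethyl sulfoxide. The dose of artesunate is given as 25 mg/kg daily for 7 days from surgery in one label and as 10 mg/kg every other day, from 2 days before surgery to day 7, in another. The labels also conflict on the species (mouse or rat) and on the number of groups, and the counts are for mouse genes. Libraries are named by the numbers in their titles: Sham 1 to 3, MI 2 to 4 and MI_ART 1 to 3. The Sham titles read CON and bear the tag AF, which is on no MI or MI_ART title. The sources used here give neither the day nor the hour of harvest. They also do not say that the 3 libraries of a group came from separate animals, so the p-values measure only the spread between these samples.

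The mammalian clock is a transcriptional loop that runs in nearly every cell, heart muscle cells included. The proteins ARNTL and CLOCK, or its relative NPAS2, bind DNA as a pair and switch on the Per and Cry genes, the nuclear receptors Nr1d1 and Nr1d2 (REV-ERB alpha and beta) and output factors such as Dbp. PER and CRY proteins then shut off their own activators, while the REV-ERB proteins repress Arntl, so that Arntl and Npas2 transcripts peak in the part of the day when those of Per, Nr1d and Dbp are low. Levels of these transcripts therefore depend on the hour at which a tissue is taken as well as on its state.

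Total counts were 68046341 to 83685313 per library. The 10 genes had from 94 counts (Npas2, Sham 2) to 12435 counts (Nr1d2, Sham 3) in a library, so none was near the floor of 3 counts per library. Levels are given as read counts normalised to library size (CPM), with edgeR's TMM scaling factors. They are compared between libraries and not between genes, because transcript lengths were not at hand. Sums over marker genes and ratios of 2 genes are likewise compared only between libraries. Fold changes, standard errors (SE) and p-values come from edgeR's quasi-likelihood test over all 9 libraries, and a gene is called changed at a Benjamini-Hochberg adjusted p under 0.05 over all 19326 genes. Cardiomyocyte markers were high in every library, but markers of the chambers varied within groups and between them. Myl7, an atrial myosin light chain, ranged from 168 to 989 CPM in the other libraries and was at 1.96 CPM in MI_ART 3, where the count ratio of its ventricular counterpart Myl2 to Myl7 was 784 (0.460 to 17.7 elsewhere). That ratio was 3.64 to 17.7 in Sham and 0.460 to 2.36 in MI, without overlap, and 1.22 to 784 in MI_ART. The part of chamber content in the clock results was not tested. Bmp10, a growth factor of atrial muscle, was at 42.0 CPM in MI 4 and at most 0.200 CPM elsewhere, with no counts in Sham 2, Sham 3, MI 2, MI 3 and MI_ART 3. MI 4 differed most from the libraries of its own group (chi-square per gene 448 and 356, against 52.2 to 99.5 for all other pairs within a group). The tests of the 10 genes were repeated without MI 4 and without MI_ART 3, and some of those values are given. Marker sums, ratios and the medians of the other lists were not recomputed in this way.

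After infarction the repressing and output arms of the clock were lower and Arntl was higher. Of the 10 genes, 7 fell and 1 rose in MI against Sham, where 33.1% of all tested genes were called (14.3% lower and 18.8% higher). At an unadjusted p under 0.05 the counts were 8 of 10 and 43.9%. The 7 that fell were all 3 Per genes, both REV-ERB genes, Dbp and Hlf. Their levels in the 3 MI libraries lay below all 3 Sham libraries, whereas over all tested genes 23.2% were lower and 25.7% higher without overlap (48.9% in either direction). The median log2 fold change of the 10 genes was -1.18, beside 0.035 over all tested genes. With MI 4 and MI_ART 3 both left out the count was again 7 lower and 1 higher. With total counts in place of TMM scaling the median of all genes moved to 0.88 and 9528 of 10172 called genes were higher (93.7%, against 56.7% with TMM), and 3 of the 10 clock genes were then lower and 2 higher, with a median of -0.34, which is 1.22 below that of all genes. Mitochondrially encoded transcripts took 37.7% to 43.1% of counts in Sham and 12.6% to 20.6% in MI, and their part in that shift was not tested.

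**Figure D1:**
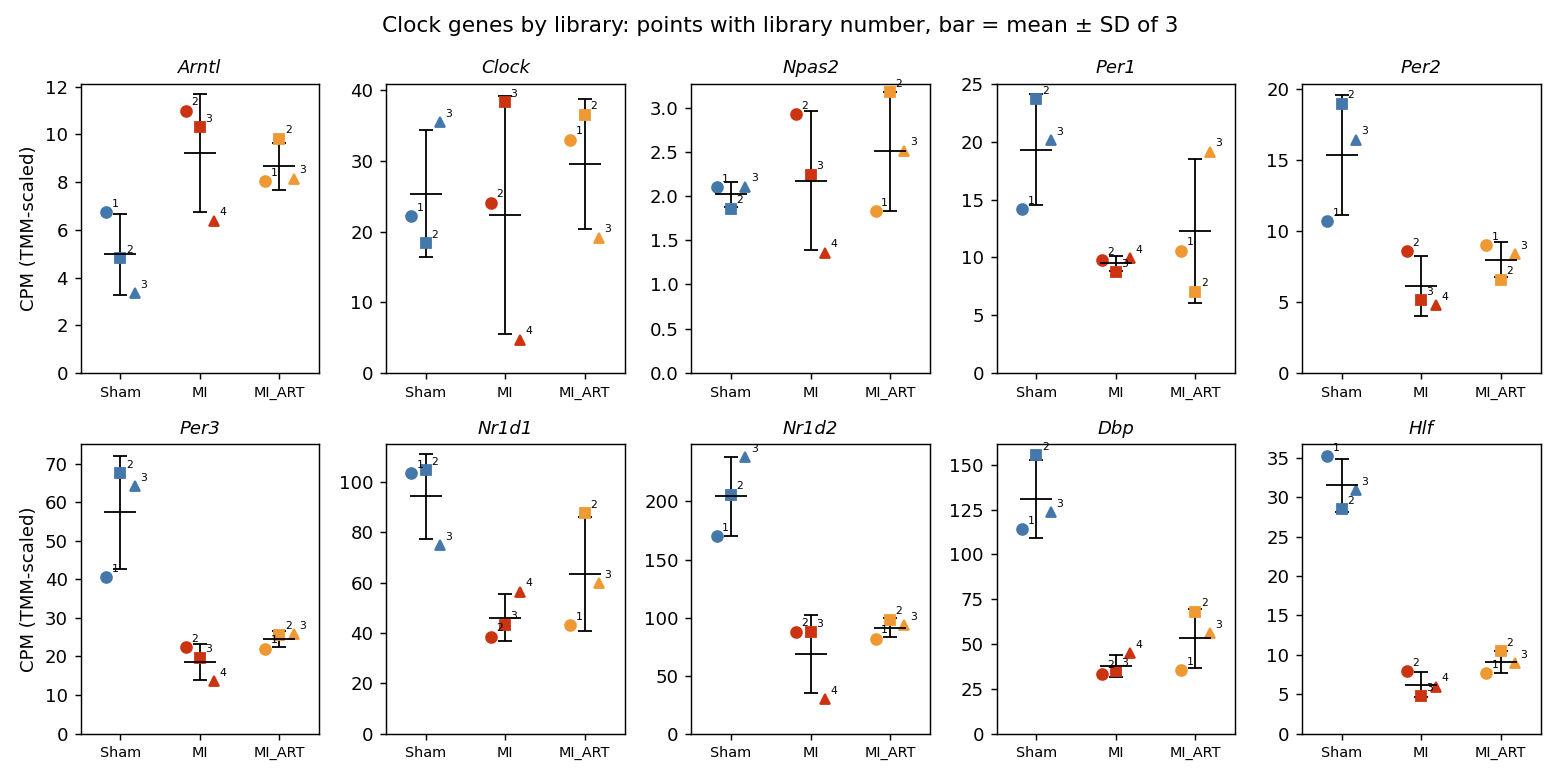
Level of each of the 10 clock genes in every library (y axis, TMM-scaled CPM, each panel from 0) by group (x axis), with the library number beside each point and bars for the mean ± SD of 3 libraries. All MI points of Per1, Per2, Per3, Nr1d1, Nr1d2, Dbp and Hlf lie below all Sham points, and the Clock and Nr1d2 values of MI 4 lie far below those of MI 2 and MI 3.

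Arntl encodes the partner of CLOCK and NPAS2 in the activating pairs of the loop (chromosome 7, 113178471 to 113314126, GRCm38). It was at 6.75, 4.82 and 3.35 CPM in Sham 1 to 3, at 11.0, 10.3 and 6.38 CPM in MI 2 to 4, and at 8.03, 9.81 and 8.14 CPM in MI_ART 1 to 3. MI 2 and MI 3 were above every Sham library, and MI 4 was just under Sham 1. Arntl rose 1.85-fold in MI (log2 0.89, SE 0.30, adjusted p = 0.0431). The call was lost without Sham 2 (adjusted p = 0.108), Sham 3 (0.131), MI 2 (0.114), MI 3 (0.105), MI_ART 1 (0.0620), MI_ART 2 (0.0516) or MI_ART 3 (0.0625), without the filter on low counts (0.0619) and with only the 2 groups compared (0.0842).

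Its partners did not pass the test under TMM scaling. Clock (chromosome 5, 76209868 to 76305603) was at 22.2, 18.3 and 35.5 CPM in Sham, at 24.1, 38.3 and 4.71 CPM in MI, and at 33.0, 36.6 and 19.1 CPM in MI_ART. The MI 4 value was the lowest of the 9 by a wide margin, and the other 8 overlapped between groups. The log2 fold change in MI was -0.18 (SE 0.59, 95% interval -1.50 to 1.14, adjusted p = 0.842), and without MI 4 it was 0.30 (adjusted p = 0.562). Npas2 (chromosome 1, 39193702 to 39363240), which can stand in for Clock, was the gene with the fewest reads. It was at 2.10, 1.86 and 2.11 CPM in Sham, at 2.93, 2.24 and 1.36 CPM in MI, and at 1.83, 3.18 and 2.51 CPM in MI_ART, so the groups overlapped. Its log2 fold change in MI was 0.11 (SE 0.34, 95% interval -0.66 to 0.87, adjusted p = 0.842), and without MI 2 it was -0.17 (adjusted p = 0.762). With total counts Npas2 passed as higher in MI (log2 0.94, adjusted p = 0.0373) and in MI_ART against Sham (1.05, 0.0301). The Clock interval includes the change seen for Arntl, and that of Npas2 ends just below it.

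The Per genes encode the repressors that, with the CRY proteins, close the main loop, and all 3 fell in MI under TMM scaling. Per1 (chromosome 11, 69095108 to 69109965), which also answers to hormones and cAMP within hours, was at 14.2, 23.7 and 20.1 CPM in Sham and at 9.77, 8.70 and 9.94 CPM in MI. Per2 (chromosome 1, 91415977 to 91459351) was at 10.7, 19.0 and 16.4 CPM in Sham and at 8.60, 5.13 and 4.76 CPM in MI. In both genes Sham 1 was the Sham library nearest to MI. Per3 (chromosome 4, 150997018 to 151044707), whose loss leaves the loop running, was at 40.6, 67.5 and 64.1 CPM in Sham and at 22.4, 19.7 and 13.6 CPM in MI. Per3 fell most of the 3, 3.09-fold (log2 -1.63, SE 0.25, adjusted p = 0.000955), then Per2, 2.50-fold (log2 -1.32, SE 0.30, adjusted p = 0.00745), and Per1, 2.04-fold (log2 -1.03, SE 0.34, adjusted p = 0.0418). The differences among these 3 fold changes were not tested. The Per1 call was lost without Sham 2 (0.130), Sham 3 (0.100), MI 2 (0.0792), MI 3 (0.104), MI 4 (0.0709) or MI_ART 1 (0.0563). It was also lost without the filter on low counts (0.0760) and with the replicate numbers as a block (0.0702). The Per1 and Per2 calls were lost with total counts (log2 -0.18 and -0.49). Those of Per2 and Per3 held with each library left out, with adjusted p up to 0.0312 and 0.00538.

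Nr1d1 and Nr1d2 encode the haem-binding repressors of the second loop. Nr1d1 (chromosome 11, 98767932 to 98775377) was at 103, 105 and 74.8 CPM in Sham and at 38.5, 43.4 and 56.5 CPM in MI. Nr1d2 (chromosome 14, 18204056 to 18239106) was at 170.0, 206 and 238 CPM in Sham and at 88.0, 87.5 and 29.8 CPM in MI. MI 4 was thus the highest MI library for Nr1d1 and the lowest for Nr1d2. Nr1d1 fell 2.04-fold (log2 -1.03, SE 0.27, adjusted p = 0.0162) and Nr1d2 fell 2.99-fold (log2 -1.58, SE 0.36, adjusted p = 0.00756). Without MI 4 the log2 fold changes were -1.20 and -1.22. The Nr1d1 call was lost without Sham 1 (0.0524), Sham 2 (0.0535), MI 2 (0.0503) or MI 3 (0.0508), while that of Nr1d2 held with each library left out (up to 0.0300). With total counts neither passed (log2 -0.19 and -0.73). Nr1d1 overlaps the thyroid hormone receptor gene Thra on the chromosome, and the strand setting of the counts is not given in the sources used here, so reads in the shared stretch cannot be told apart. Thra was at 38.2 to 56.8 CPM in Sham and 30.6 to 50.3 CPM in MI (log2 -0.32, adjusted p = 0.293).

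Dbp and Hlf encode transcription factors of the PAR bZIP family, which carry the rhythm from the core loop to metabolic and detoxifying genes, and they fell furthest. Dbp (chromosome 7, 45705100 to 45710203) was at 114, 155 and 124 CPM in Sham and at 33.4, 34.8 and 44.8 CPM in MI. Hlf (chromosome 11, 90336535 to 90390917) was at 35.2, 28.5 and 30.9 CPM in Sham and at 7.95, 4.77 and 5.98 CPM in MI. Every Sham library was at least as far above MI as the whole spread within MI for both genes. Hlf fell 5.06-fold (log2 -2.34, SE 0.23, adjusted p = 0.000124) and ranked 235 of 19326 genes by p. Dbp fell 3.48-fold (log2 -1.80, SE 0.25, adjusted p = 0.000682). Both passed in all 18 alternative analyses, total counts included, with adjusted p up to 0.00171 for Hlf and 0.0134 for Dbp. Dbp overlaps Sphk2, a sphingosine kinase gene, which moved the other way, from 7.30 to 10.5 CPM in Sham to 15.3 to 33.9 CPM in MI (log2 1.26, adjusted p = 0.00944).

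**Figure D2:**
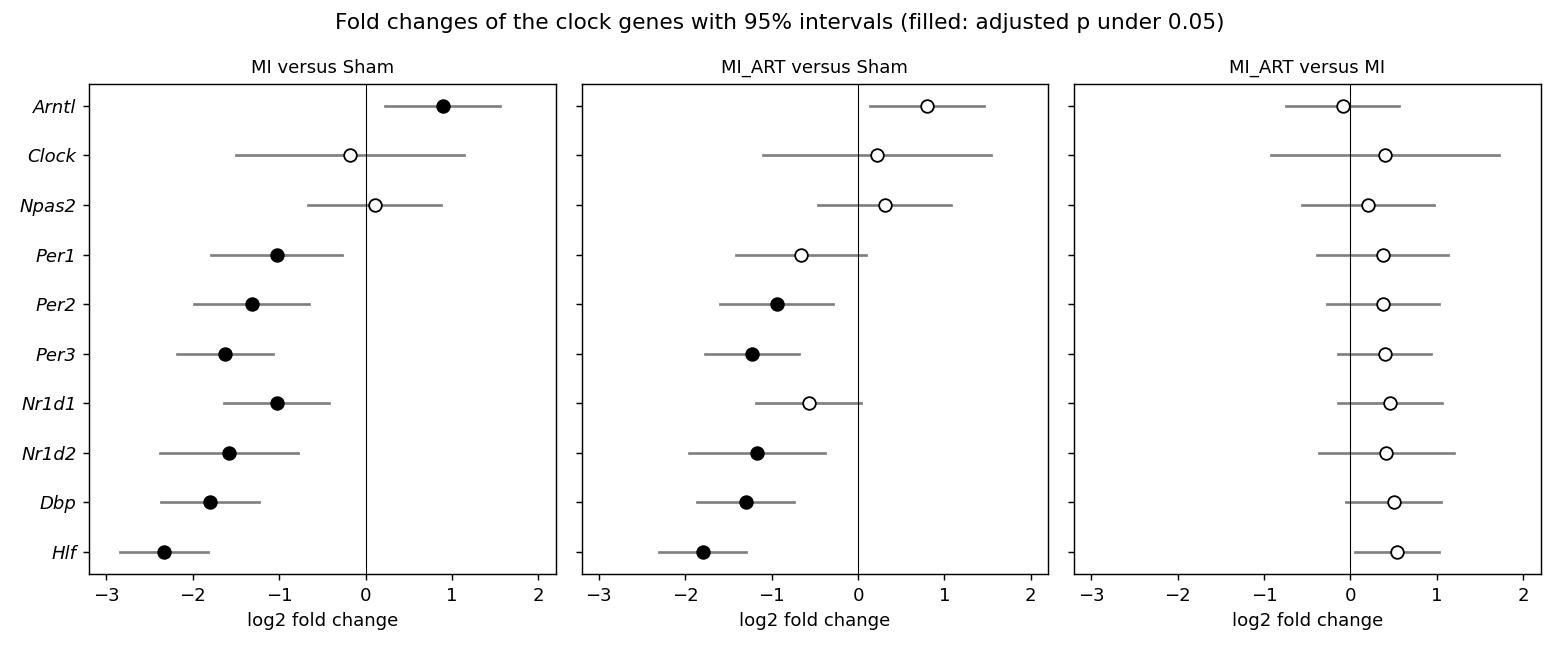
Log2 fold change (x axis) of the 10 clock genes (y axis) in the 3 comparisons with 95% intervals from edgeR, not adjusted for multiple tests; filled points have an adjusted p under 0.05. The calls at the left run from Hlf at -2.34 to Arntl at 0.89, and no point is filled in MI_ART versus MI; with total counts Clock changes sign in MI versus Sham, and Per1 and Nr1d1 do so in MI_ART versus Sham.

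The ratio of the other clock genes to Arntl within a library is given as a description, since 7 of the genes were already lower and Arntl higher in MI. It does not depend on how libraries are scaled, though its absolute size depends on transcript lengths and is compared only between libraries. Hlf over Arntl was 5.21, 5.91 and 9.22 in Sham, 0.723, 0.464 and 0.938 in MI, and 0.959, 1.07 and 1.10 in MI_ART. Every infarcted library was thus far below every Sham library, by a mean log2 difference of -3.27 in MI and -2.66 in MI_ART. Dbp over Arntl was 16.9, 32.2 and 36.9 in Sham, 3.04, 3.38 and 7.02 in MI, and 4.41, 6.95 and 6.89 in MI_ART. Per3 over Arntl was 6.01, 14.0 and 19.1 in Sham, 2.04, 1.91 and 2.12 in MI, and 2.74, 2.61 and 3.16 in MI_ART, the tightest of the ratios within MI (SD 0.076 on the log2 scale). For Nr1d2 the mean log2 difference between MI and Sham was -2.64, for Per2 -2.24, for Nr1d1 -1.94 and for Per1 -1.91. In these 7 ratios, whose parts were called in opposite directions, MI did not overlap Sham, and MI_ART overlapped Sham in Per1 over Arntl, through MI_ART 3 (2.35, beside 2.10 in Sham 1). Clock over Arntl overlapped, at 3.29, 3.81 and 10.6 in Sham, 2.19, 3.72 and 0.738 in MI and 4.11, 3.73 and 2.35 in MI_ART. Npas2 over Arntl was 0.311, 0.385 and 0.629 in Sham, 0.266, 0.218 and 0.213 in MI and 0.227, 0.324 and 0.309 in MI_ART. Sham 1 had the lowest and Sham 3 the highest of the Sham values in all 7 ratios, which share Arntl as their denominator (highest in Sham 1 and lowest in Sham 3).

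**Figure D3:**
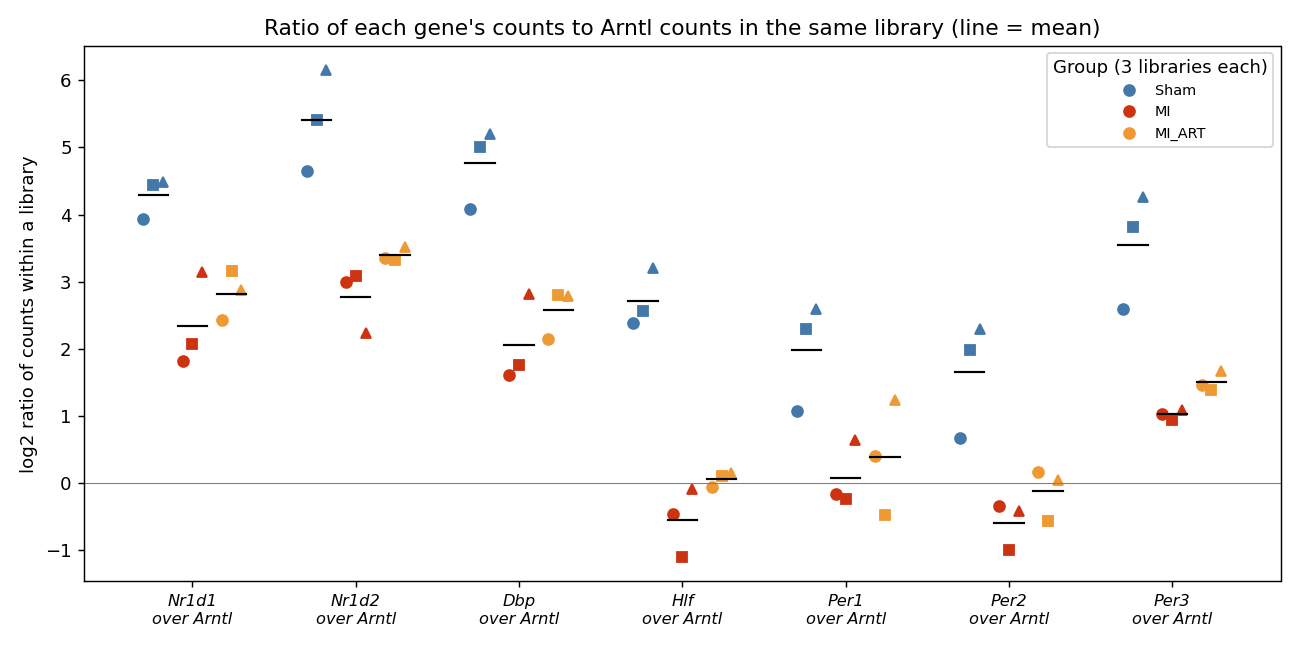
Log2 ratio of the counts of 7 clock genes to the counts of Arntl in the same library (y axis), by gene (x axis) and group (colour, 3 libraries each, lines for means). MI lies below Sham in all 7 ratios, by 1.91 (Per1) to 3.27 (Hlf) on the log2 scale, and MI_ART lies below Sham in all but Per1 over Arntl.

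With artesunate the infarcted samples were still below Sham for 5 of these 10 genes under TMM scaling. In MI_ART against Sham 5 of the 10 fell, namely Hlf, Dbp, Per3, Nr1d2 and Per2, and none rose, where 20.3% of all tested genes were called (7.41% lower and 12.9% higher). At an unadjusted p under 0.05 the counts were 6 of 10 and 33.3%. Without MI 4 and MI_ART 3, 5 were lower too, but Per2 was lost (adjusted p = 0.0633) and Per1 gained (log2 -1.13, 0.0200). With total counts only Hlf was lower and Arntl and Npas2 were higher, with a median of -0.058 beside 0.75 over all genes, of which 8032 of 8156 called were higher (98.5%, against 63.5% with TMM). The median log2 fold change was -0.80, beside 0.014 over all tested genes. In 6 genes the groups did not overlap, 5 lower and 1 higher, where 22.8% of all tested genes were lower and 25.4% higher without overlap (48.2% in all). This comparison shares the Sham libraries with MI against Sham, so both carry the same Sham values. Hlf was at 7.70, 10.5 and 8.98 CPM in MI_ART 1 to 3, 3.48-fold lower than Sham (log2 -1.80, SE 0.22, adjusted p = 0.000600), and it passed in all 18 alternatives. Dbp was at 35.4, 68.2 and 56.1 CPM, 2.46-fold lower (log2 -1.30, SE 0.25, adjusted p = 0.00613). Per3 was at 22.0, 25.6 and 25.7 CPM, 2.35-fold lower (log2 -1.23, SE 0.24, adjusted p = 0.00686). These 3 held with each library left out, but Dbp and Per3 did not pass with total counts (log2 -0.57 and -0.49).

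Nr1d2 and Per2 passed more narrowly. Nr1d2 was at 82.0, 98.3 and 93.4 CPM in MI_ART, below all Sham libraries (log2 -1.17, SE 0.35, adjusted p = 0.0430). Its call was lost without Sham 1 (0.0650), Sham 2 (0.0963), Sham 3 (0.130), MI_ART 1 (0.142), MI_ART 2 (0.0942) or MI_ART 3 (0.108), without the filter (0.0795) and with total counts (log2 -0.42, 0.344). Per2 was at 9.02, 6.59 and 8.40 CPM (log2 -0.94, SE 0.29, adjusted p = 0.0483), also below all Sham libraries. It was lost without Sham 2 (0.154), Sham 3 (0.129), MI 3 (0.0582), MI_ART 1 (0.100), MI_ART 2 (0.156) or MI_ART 3 (0.111), and with the replicate numbers as a block (0.0617). It was also lost with RLE factors (0.0514), without mitochondrial genes (0.0511), without the filter (0.0890), without MI 4 and MI_ART 3 (0.0633) and with total counts (log2 -0.20, 0.605).

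Per1, Nr1d1 and Arntl did not pass against Sham with artesunate. Per1 was at 10.6, 7.01 and 19.1 CPM in MI_ART 1 to 3, and MI_ART 3 alone lay within the Sham range. Its log2 fold change was -0.66 (SE 0.34, adjusted p = 0.209), and without MI_ART 3 it was -1.13 (adjusted p = 0.0341). Nr1d1 was at 43.1, 87.7 and 59.7 CPM, with MI_ART 2 inside the Sham range (log2 -0.57, SE 0.27, adjusted p = 0.173). With total counts the sign of both turned (log2 0.086 for Per1 and 0.15 for Nr1d1). Arntl was above Sham in all 3 MI_ART libraries (log2 0.80, SE 0.30, adjusted p = 0.0870), and it passed without Sham 1 (0.0494) or MI 4 (0.0359), with the replicate block (0.0366), with DESeq2 (0.0456) and with total counts (0.00420). Clock had a log2 fold change of 0.22 (adjusted p = 0.838) and Npas2 of 0.31 (adjusted p = 0.588).

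Between artesunate and vehicle after infarction no clock gene differed by the test. In MI_ART against MI, edgeR called 0 of the 10 (2 of all 19326 genes, 0.0103%), DESeq2 also called 0, and 1 gene, Hlf, had an unadjusted p under 0.05 with either tool (6.96% of all tested genes with edgeR). All 10 genes overlapped between the groups, where 7.38% of all tested genes were higher and 6.52% lower without overlap (13.9% in all). Hlf had the smallest p (log2 0.54, SE 0.22, 95% interval 0.048 to 1.03, adjusted p = 0.709), then Dbp (log2 0.50, SE 0.25, 95% interval -0.055 to 1.05, adjusted p = 0.730) and Nr1d1 (log2 0.46, SE 0.27, 95% interval -0.14 to 1.06, adjusted p = 0.744). Arntl was at a log2 of -0.090 with a 95% interval of -0.74 to 0.56. The estimates of 9 genes were above 0 and their median was 0.40, beside -0.0030 over all tested genes, and without MI 4 and MI_ART 3 the median was 0.17. Without MI 4 the Clock and Npas2 estimates turned below 0 (-0.077 and -0.044), and without MI_ART 3 that of Per1 did (-0.11). The unadjusted intervals of all but Hlf include 0, and their upper bounds run from 0.56 (Arntl) to 1.72 (Clock), so similar levels are not shown.

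Ratios between related genes overlapped between MI and Sham, except Per1 over Per3, and they were not tested. Nr1d1 over Nr1d2 was 0.608, 0.509 and 0.314 in Sham, 0.438, 0.496 and 1.89 in MI and 0.525, 0.892 and 0.639 in MI_ART. Clock over Npas2 was 10.6, 9.88 and 16.9 in Sham, 8.23, 17.1 and 3.47 in MI and 18.1, 11.5 and 7.60 in MI_ART. MI 4 held the highest of the former and the lowest of the latter. Dbp over Hlf overlapped between groups as well, at 3.24 to 5.45 in Sham, 4.20 to 7.49 in MI and 4.60 to 6.51 in MI_ART. Per1 over Per3 was 0.314 to 0.351 in Sham and 0.436 to 0.733 in MI without overlap, and 0.274 to 0.744 in MI_ART.

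The deviation of MI 4 from its group followed the size of the gene. Over genes with a mean of at least 1 CPM and a position in the RefSeq gene table, MI 4 exceeded the mean of MI 2 and MI 3 by a median log2 of 0.47 for 3797 genes that span under 10 kb. It was lower by a median log2 of -0.43 for 1912 genes of 50 to 100 kb, and of -0.45 for 1791 genes over 100 kb. In the Sham and MI_ART libraries the same medians lay between -0.054 and 0.062. The clock genes followed this order only in part. Dbp (span 5.10 kb) and Nr1d1 (7.45 kb) were higher in MI 4 by 0.39 and 0.47, and Per1 (14.9 kb) by 0.11. Arntl (136 kb) and Npas2 (170 kb) were lower, at -0.74 and -0.91. Against medians of -0.14 for genes of 20 to 50 kb and those above for larger ones, Nr1d2 (35.1 kb, -1.56), Per2 (43.4 kb, -0.48), Per3 (47.7 kb, -0.63), Clock (95.7 kb, -2.69), Arntl and Npas2 were lower than the median for their size, and Hlf (54.4 kb, -0.042) was not. Span counts introns and is not transcript length, this measure was chosen after the values of MI 4 had been seen, and its part in the clock results was not tested.

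**Figure D4:**
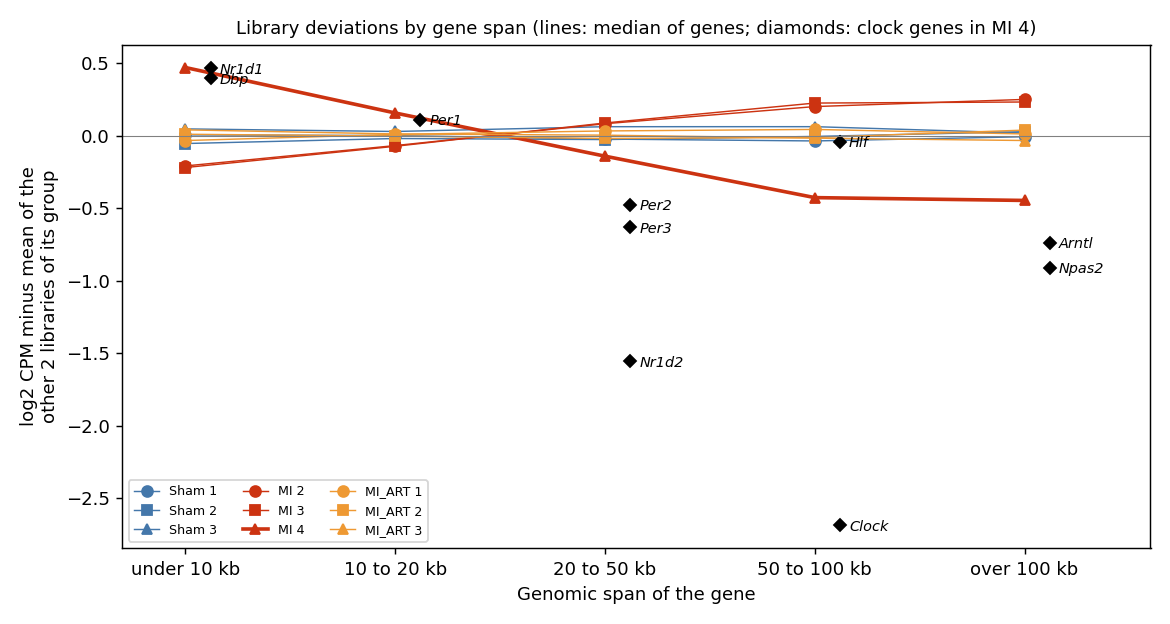
Median log2 difference of each library from the other 2 of its group (y axis, lines) for genes grouped by genomic span (x axis, kb), with the 10 clock genes of MI 4 as diamonds. The MI 4 line runs from 0.47 for genes under 10 kb to -0.45 for genes over 100 kb; the MI 2 and MI 3 lines bend the other way because MI 4 is in their reference.

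Among other genes of the loop Ciart, Cry2, Tef and Rora were among those that fell in MI, and Csnk1d and Fbxl21 rose. Of 18 further clock genes, 5 fell and 2 rose in MI, with a median log2 fold change of -0.42, and 5 fell and 1 rose in MI_ART against Sham, with a median of -0.24. The share called in MI is near that of all tested genes (33.1%), where 14.3% were lower and 18.8% higher, and in MI_ART 7.41% of all genes were lower and 12.9% higher. Ciart, a repressor of the ARNTL and CLOCK pair, was at 5.35, 11.6 and 9.17 CPM in Sham and at 1.65, 1.46 and 2.78 CPM in MI (log2 -2.15, SE 0.41, adjusted p = 0.00315). Cry2, a partner of the PER proteins, was at 27.7, 39.1 and 27.8 CPM in Sham and at 13.9, 11.5 and 14.7 CPM in MI (log2 -1.24, SE 0.20, adjusted p = 0.00149), and with total counts it did not pass (-0.41, 0.159). Its paralog Cry1 was at 6.80 to 8.11 CPM in Sham and 4.11 to 6.75 CPM in MI (log2 -0.44, adjusted p = 0.170), and this sign turned with total counts (0.39). Tef, the third PAR bZIP factor, was at 96.5, 115 and 109 CPM in Sham and at 45.4, 50.7 and 49.0 CPM in MI (log2 -1.15, SE 0.16, adjusted p = 0.000569). The 3 PAR bZIP genes thus all fell in MI under TMM scaling, with Tef falling by the smallest estimate, and with total counts Tef did not pass (log2 -0.30).

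Rora, a nuclear receptor that opposes the REV-ERB proteins at Arntl, fell as well. It was at 32.6, 37.0 and 37.6 CPM in Sham, at 24.2, 17.0 and 10.6 CPM in MI and at 3.12, 7.63 and 5.66 CPM in MI_ART. Between MI_ART and MI the difference did not pass the edgeR test (log2 -1.66, SE 0.36, unadjusted p = 0.000956, adjusted p = 0.570). Rora ranked 32 of 19326 genes by p there. All 3 MI_ART libraries were below all 3 MI libraries, as in 6.52% of all tested genes. Rora fell in MI (log2 -1.05, adjusted p = 0.0437) and in MI_ART against Sham (log2 -2.71, SE 0.37, adjusted p = 0.000990), and neither group overlapped Sham. The former call was lost without Sham 1 (0.0748), Sham 2 (0.0992), Sham 3 (0.106), MI 3 (0.0972), MI 4 (0.0973) or MI_ART 3 (0.0615), without MI 4 and MI_ART 3 (0.122), without the filter (0.0801) and with total counts (log2 -0.21, 0.627). The competing repressors of the loop did not pass in MI under TMM scaling: Bhlhe40 had a log2 of 0.17 (adjusted p = 0.503), Bhlhe41 of -0.46 (0.0820), and Nfil3, which opposes the PAR bZIP factors, of 0.49 (0.101, and 0.0423 without MI 3). With total counts Bhlhe40 (1.01, 0.000888) and Nfil3 (1.34, 0.000727) passed as higher and Bhlhe41 was at 0.38 (0.164).

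The 2 further clock genes that rose did so narrowly. Csnk1d, a kinase of the PER proteins, had a log2 of 0.51 (adjusted p = 0.0399) and was lost without Sham 1 (0.109), Sham 2 (0.0558), Sham 3 (0.121), MI 3 (0.0511), MI_ART 1 (0.0602) or MI_ART 3 (0.0656), with the replicate block (0.0608), with only the 2 groups compared (0.0850) and without MI 4 and MI_ART 3 (0.0651). Fbxl21, a ubiquitin ligase subunit for CRY proteins, was under 1 CPM in every library (log2 1.40, adjusted p = 0.0412), and with single libraries left out its call held only without MI 4 (0.0457), with adjusted p of 0.0545 to 0.111 for the others. The replicate block ended that call too (0.0975). In MI_ART against Sham, Ciart (log2 -1.87, adjusted p = 0.0103), Cry2 (-0.85, 0.0162) and Tef (-0.69, 0.0125) were again lower. Fbxl21 rose (1.51, 0.0452), and with single libraries left out that call held only without MI 4 (0.0302), with adjusted p of 0.0596 to 0.157 for the others. The Cry2 call was lost without Sham 2 (0.0613), MI_ART 1 (0.0612) or MI_ART 3 (0.0707), that of Tef without MI_ART 2 (0.0626). With total counts Cry2 did not pass (-0.12, 0.696) and Tef turned sign (0.050).

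Genes known to follow the clock in heart or in many tissues were lower in part. Of 15 such genes 9 fell and none rose in MI, with a median log2 fold change of -1.36, and 6 fell in MI_ART against Sham, with a median of -0.99, where 14.3% and 7.41% of all tested genes were lower. Klf15, a glucocorticoid- and clock-driven regulator of cardiac metabolism, fell from 35.8 ± 10.2 to 9.29 ± 3.65 CPM (SD, n = 3, log2 -1.95, SE 0.32, adjusted p = 0.00149). Dgat2, which makes triglycerides, fell from 408 ± 84.0 to 101 ± 21.5 CPM (log2 -2.02, SE 0.22, adjusted p = 0.000190). Kcnip2, a rhythmic subunit of a repolarising potassium channel, had a log2 of -2.52 (adjusted p = 0.000653) and Tcap, a sarcomere protein, of -1.97 (adjusted p = 0.000310). Single cardiomyocyte markers ran from -2.19 to -0.59 in MI, a range that includes Klf15, Dgat2 and Tcap but not Kcnip2. The part of cell content in these falls was not tested. In MI_ART against Sham, Dgat2 (log2 -1.32, adjusted p = 0.00260) and Tcap (-1.59, 0.00147) were lower as well. Kcnip2 (-1.31, 0.0231) and Klf15 (-1.12, 0.0310) passed too, and both were lost without Sham 2 (0.0831 and 0.112), MI_ART 1 (0.0688 and 0.122), MI_ART 2 (0.0825 and 0.0827) or MI_ART 3 (0.0668 and 0.0507), and Klf15 also without Sham 3 (0.0676). With total counts Dgat2 (-0.59, 0.0579), Kcnip2 (-0.58, 0.190) and Klf15 (-0.39, 0.340) did not pass in MI_ART.

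**Figure D5:**
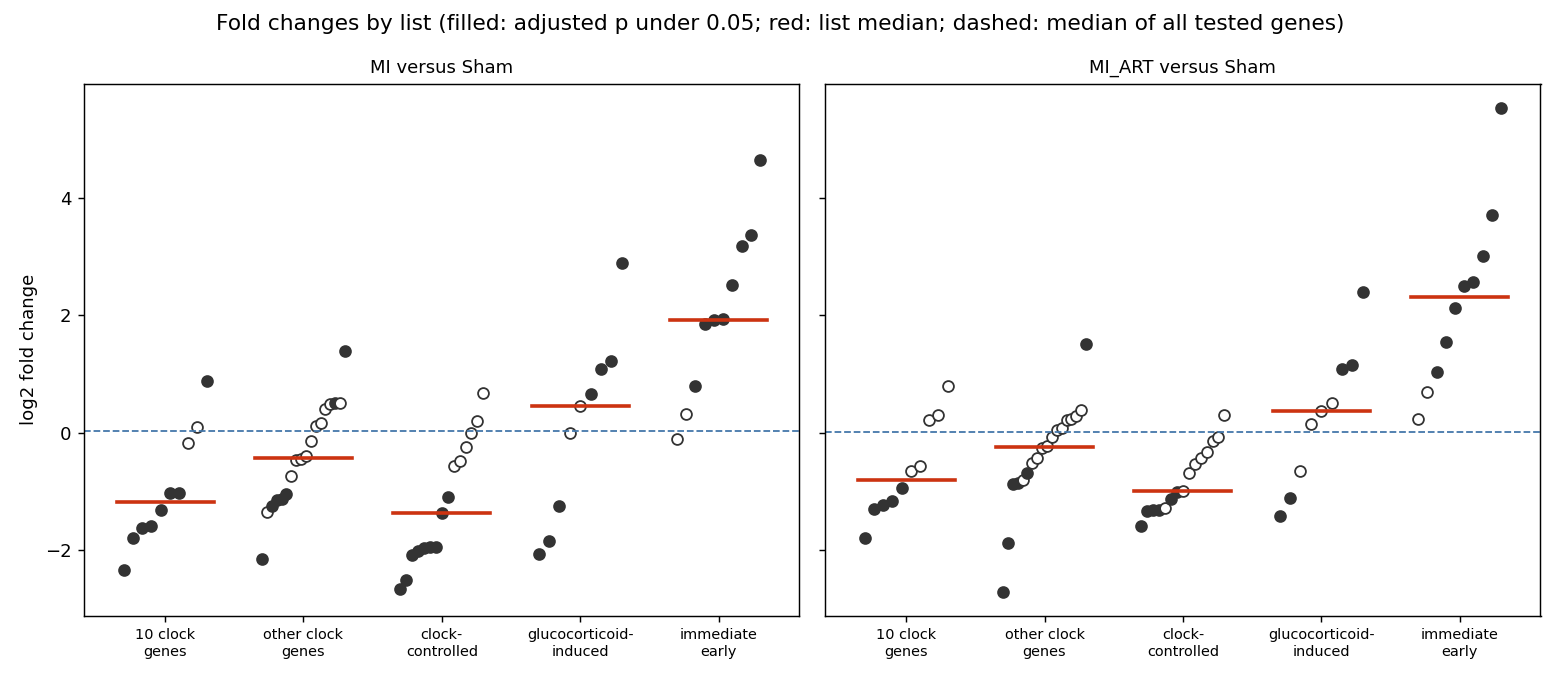
Log2 fold change (y axis) of each gene in 5 lists (x axis) in MI versus Sham and MI_ART versus Sham; filled points have an adjusted p under 0.05, red lines are list medians and the dashed line is the median of all tested genes. In MI the list medians run from -1.36 for clock-controlled genes to 1.93 for immediate early genes, under TMM scaling; total counts put the all-gene median in MI at 0.88.

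Markers of cell types moved with these groups, where 14.3% of all tested genes were lower and 18.8% higher in MI. Summed over 8 cardiomyocyte markers, of which 6 fell in MI, the level was 63074 to 67559 CPM in Sham, 20662 to 32987 in MI and 28313 to 38138 in MI_ART, a mean log2 difference from Sham of -1.31 in MI and -0.97 in MI_ART. Those of Hlf (-2.34 and -1.80) and Dbp (-1.80 and -1.30) were further from 0, as were Per3, Nr1d2 and Per2 in MI (-1.63, -1.58 and -1.32). The sum rests most on its most abundant markers, among them Myh6 (-1.42 in MI) and Actc1 (-0.59). The median log2 fold change of the 8 markers was -1.50 in MI, further from 0 than that of Per2. The ventricular sum below differed from Sham by -1.81 in MI and -1.24 in MI_ART, near the values of Dbp. Those of Per1 and Nr1d1 (-1.03 in MI) were nearer. The single cardiomyocyte markers ran from -2.19 to -0.59 in MI and from -1.52 to -0.68 in MI_ART, a range that includes Dbp but not Hlf. The 5 ventricular markers (3 fell) summed to 7579 to 8445 CPM in Sham, 1657 to 3033 in MI and 2923 to 4476 in MI_ART, and the 5 atrial markers (none passed) to 1739 to 7323, 13430 to 25084 and 1302 to 12368. Markers of fibroblasts (4 of 6 rose, 1 fell) summed to 1499 to 1701 CPM in Sham and 6367 to 7222 in MI. All 6 macrophage markers rose in MI, with sums of 239.8 to 388 and 2127 to 2340 CPM, as did all 4 neutrophil markers (1.32 to 1.44 and 43.6 to 107) and all 4 markers of dividing cells (2.33 to 6.54 and 152 to 247). In MI_ART the sums of these 4 lists were 5784 to 6646, 1408 to 2885, 16.6 to 78.9 and 104 to 172 CPM. Endothelial markers (2 of 4 fell in MI) were at 513 to 550, 423 to 552 and 453 to 471 CPM in the 3 groups, and adipocyte markers (none of 4 passed) at 46.0 to 86.5, 19.5 to 131 and 23.6 to 76.0, with Ucp1 at 0 in MI 2, MI 3 and MI_ART 3. In bulk RNA, fewer cells of a type and less RNA per cell cannot be told apart, and the part of these shifts in the clock results was not tested.

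The genes most like Arntl and Nr1d1 over the 9 libraries were sought among 13066 genes, by Pearson's r of log2 CPM. Nearest to Arntl were Tbx18 (r = 0.96), Nxpe3 (0.95), Poli (0.95), Btbd19 (0.93) and Afap1l2 (0.93). Nearest to Nr1d1 were Adcy5 (r = 0.95), Mhrt (0.94), Map1lc3b (0.94), Cirbp (0.94) and Arfrp1 (0.94). These values describe likeness over 9 libraries that share 3 group means.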

How the data were processed

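The authors deposited whole read counts for each Ensembl gene, not normalized. The submitters' processing notes name HISAT, featureCounts 1.5.0-p3, DESeq 1.8.3 and the build GRCm38, while the sources used here name no strand, multi-mapping or filter setting. The 9 per-sample files equalled the series table, at a tolerance of 0. Low genes were dropped with filterByExpr, and TMM-scaled counts were fitted in edgeR 4.0.16 (R 4.3.3) with 1 mean per group over all 9 libraries. Quasi-likelihood F tests compared the groups, with Benjamini-Hochberg adjustment. The SE is the log2 fold change over the root of F. The fit was also run on simulated data, and the outcome is not given here. A count of 3 corresponded to 0.0322 to 0.0592 CPM, for counting error only. Positions are from a RefSeq table of GRCm38, which held all 10 genes; promoters and proteins were not analysed here.

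Named were all 10 genes, 8 fixed and all called genes of the 18 further clock genes (1 of these is not reported here), the 4 with the smallest p in MI of each other list, and the 5 genes most like Arntl and Nr1d1. The members and the 14 lists, 9 of them cell type markers, were chosen with earlier results of these data known. Alternatives were other scalings (RLE, upper quartile, total counts), no mitochondrial genes, no filter, DESeq2 1.42.0, only the groups compared, replicate block, each library left out, and MI 4 and MI_ART 3 left out.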

Additional observations from a re-analysis of the deposited data

How the results depend on the processing

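Each result was recomputed under 18 alternatives. In MI versus Sham, Per3, Dbp and Hlf kept direction and call in all 18, Per2 and Nr1d2 in 17, Nr1d1 in 13, and Arntl and Per1 in 9. In MI_ART versus Sham, Hlf did so in 18, Per3 and Dbp in 17, Nr1d2 in 10 and Per2 in 6. With total counts, 5 clock genes were called in MI versus Sham (2 higher, 3 lower) and 3 in MI_ART versus Sham (2 higher, 1 lower), against 8 (1 higher, 7 lower) and 5 (all lower), and 10172 and 8156 genes in all, against 6399 and 3921. Without a filter on low counts, which tests more genes, 3 clock genes were called in MI_ART versus Sham. With single libraries left out, the clock genes called were 5 to 7 in MI versus Sham (5 without Sham 2, MI 2 or MI 3) and 3 to 6 in MI_ART versus Sham (3 without Sham 2, Sham 3, MI_ART 1 or MI_ART 2). All genes called in MI_ART versus Sham were then 2098 to 6367 (2512 without Sham 3, 6367 without MI 4, 2098 without MI_ART 1, 2513 without MI_ART 3).

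Same-numbered libraries of different groups had correlations of their deviations from -0.055 to 0.063 over 7 pairs. Those values gave no sign of pairing, but pairs with different numbers were not compared. Whether the numbers mark a pairing therefore cannot be told. The number 4 occurs only in MI 4. The replicate block thus gives MI 4 a term of its own, so this alternative overlaps with leaving MI 4 out. With the block, 5926 genes were called in MI_ART versus Sham and 1 in MI_ART versus MI. Of the clock genes, 7 were then called in MI versus Sham, where Per1 was lost. In MI_ART versus Sham 5 were called (4 lower, 1 higher), where Per2 was lost and Arntl gained. In MI_ART versus MI, against 2 genes, 1 was called with upper-quartile factors, with total counts, without a filter and without MI 4 and MI_ART 3, 88 with DESeq2 (1648 at an unadjusted p under 0.05, 1346 with edgeR), 0 with only the 2 groups compared, and 0 to 3 with single libraries left out (0 without MI_ART 2, 1 without Sham 1, Sham 2, Sham 3, MI 4 or MI_ART 3). The cause of these shifts was not tested.

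Signs that turned belonged to calls that did not pass, except that of Tef. Clock in MI versus Sham was 0.69 with total counts, 0.30 with the replicate block and without MI 4 and MI_ART 3, and -0.82 to 0.30 with single libraries left out (0.14 without Sham 3, 0.30 without MI 4). Npas2 in MI versus Sham was -0.17 (without MI 2) to 0.35 with single libraries left out, and 0.94 with total counts. In MI_ART versus MI, Clock was -0.016 with the replicate block and -0.077 (without MI 4) to 1.04 with single libraries left out, Arntl was -0.30 to 0.055 (without MI 2), Npas2 was -0.044 (without MI 4) to 0.48, and Per1 was -0.11 (without MI_ART 3) to 0.65. Without MI 4 and MI_ART 3, Npas2 was -0.047 and Per1 was -0.069. With total counts, Per1, Nr1d1 and Tef in MI_ART versus Sham were 0.086, 0.15 and 0.050, Cry1 was 0.39 in MI and 0.31 in MI_ART versus Sham, and Bhlhe41 was 0.38 and 0.21. Single genes outside the 10 were not recomputed in MI_ART versus MI.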

Other observations

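Genes that glucocorticoids induce moved in both directions after infarction, and immediate early genes were mostly higher. Of 9 genes that glucocorticoids induce in many tissues, 4 rose and 3 fell in MI against Sham by edgeR, with a median log2 fold change of 0.45, and 3 rose and 2 fell in MI_ART against Sham, with a median of 0.37, where 33.1% and 20.3% of all tested genes were called. Fkbp5, a chaperone of the glucocorticoid receptor, rose from 8.36 ± 0.152 to 19.5 ± 3.97 CPM (SD, n = 3, log2 1.22, adjusted p = 0.00186), whereas Klf9, a transcription factor, fell from 156 ± 25.9 to 43.5 ± 20.2 CPM (log2 -1.85, adjusted p = 0.00290) and Zbtb16, another, had a log2 of -2.07 (adjusted p = 0.00526). Cdkn1a, a cell cycle inhibitor that many stresses induce, had a log2 of 2.89 (adjusted p = 0.000110). In MI_ART against Sham, Klf9 (log2 -1.10, adjusted p = 0.0450) and Zbtb16 (-1.42, 0.0411) passed narrowly: both calls were lost without Sham 2 (0.113 and 0.137), Sham 3 (0.128 and 0.109), MI 3 (0.0555 and 0.0571), MI_ART 1 (0.153 and 0.0770), MI_ART 2 (0.111 and 0.0965) or MI_ART 3 (0.0902 and 0.135), and that of Klf9 without Sham 1 (0.0625). They were also lost with total counts (log2 -0.36, 0.402 and -0.69, 0.207) and without the filter on low counts (0.0835 and 0.0743), and that of Zbtb16 without MI 4 and MI_ART 3 (0.0610).

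Of 10 immediate early genes 8 rose and none fell both in MI and in MI_ART against Sham, with medians of 1.93 and 2.32, where 18.8% and 12.9% of all tested genes were higher. Fos was at 0.519 ± 0.514 CPM in Sham and 13.1 ± 4.30 CPM in MI (log2 4.65, adjusted p = 0.000554). Junb (log2 2.52), Atf3 (3.18) and Ier2 (1.85) rose in MI as well, with adjusted p of 0.000339, 0.000302 and 0.000702.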
